A study of Mus musculus with 8 samples.

Results

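The genes described here are 9 genes of ependymal cells and motile cilia, namely Foxj1, Ccdc153, Tmem212, Rsph1, Dynlrb2, Rarres2, Dnali1, Hydin and Dnah5. They were taken by symbol from the bulk RNA sequencing table of the whole mouse brain, and all 9 were found among its 24343 genes. The study behind this table measured the average expression of each gene in the whole brain to set beside imaging of single RNA molecules. Brains of 3 C57BL/6NCrl mice aged 56 to 62 days were sequenced, as 3 libraries each for mice 1 and 2 and 2 libraries for mouse 3. No treatment or genotype separated the mice, which shared strain, age and housing on a light/dark cycle, so each comparison below is between individual animals. Males and females were used in the study, and the sex of each of these 3 mice is not reported here.

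Ependymal cells line the ventricles of the brain and carry tufts of motile cilia that move the cerebrospinal fluid. The shaft of a motile cilium, the axoneme, holds doublet microtubules around a central pair. Dynein arms on the doublets drive the beat, and radial spokes and the central pair coordinate it. The transcription factor Foxj1 switches on the genes of this apparatus together with factors of the RFX family.

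The promoters of the genes were searched for the letters these factors are known to bind, since Foxj1 is itself one of the 9 genes. RefSeq promoter windows of GRCm38.p6, from 250 bases before to 50 bases after a gene's start, were matched by symbol for 6 of the 9 genes (Ccdc153, Dnah5, Dnali1, Dynlrb2, Hydin and Tmem212) and not for Foxj1, Rarres2 and Rsph1. The RFX motif GTTGCC, read on both strands, was present in 3 of the 6 windows and in 12.5% of all 32851 promoter windows. The 3 stretches are shown because they carry that motif, which is in capitals (GGCAAC where it lies on the opposite strand). All 3 run 5′ to 3′ on the plus strand, the strand of each gene.
Ccdc153, chr9:44240495-44240560: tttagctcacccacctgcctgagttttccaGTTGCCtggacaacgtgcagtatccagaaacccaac
Dynlrb2, chr8:116504934-116504999: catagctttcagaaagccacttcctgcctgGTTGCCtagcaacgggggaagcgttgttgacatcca
Hydin, chr8:110266934-110266976: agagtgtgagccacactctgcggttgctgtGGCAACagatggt

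The motif began 152 bases before the start of Ccdc153 and 51 bases before that of Dynlrb2, and in Hydin it lay between 13 and 8 bases before the start. In each of these windows the motif was followed on its own strand, within 4 bases, by the letters CAAC, a partly inverted copy of it. This longer pattern was chosen after the sequences had been seen, and 0.475% of all promoter windows held it. The forkhead core GTAAACA, searched for Foxj1, was in 0 of the 6 windows and in 3.65% of all windows. An X-box written as GTNNCC, 0 to 3 bases and GGNNAC, which can overlap the RFX motif, was in 0 of the 6 and in 3.86% of all windows. This spelling asks for GG at the start of its second part. After the motif and on its own strand, Dynlrb2 and Hydin hold AGCAAC, which the spelling leaves out. The 0 of 6 therefore covers that spelling only, and X-boxes written otherwise were not searched. These matches describe letters in a window and were not tied to any measurement of binding.

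Each of the 9 genes was represented by 1 RefSeq transcript, so no reads had to be divided between isoforms of a gene. On mm10 coordinates, all of them protein-coding genes, the deposited table placed Foxj1 at chr11:116330704-116335354, Ccdc153 at chr9:44240677-44247306 and Tmem212 at chr3:27866065-27896368. Rsph1 lay at chr17:31255020-31277356, Dynlrb2 at chr8:116505015-116515915 and Rarres2 at chr6:48569698-48572670. Dnali1 lay at chr4:125055339-125065657, Hydin at chr8:110266977-110610253 and Dnah5 at chr15:28203766-28472045. The values are FPKM, fragments scaled for the length of the transcript and for all fragments mapped in the library, and as such are levels per length. Comparison of these levels between genes of unlike length has a limit, since the libraries differed along transcript length, as described below.

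Between 1.31 and 2.02 gigabases were read on transcripts in each library, and between 12728 and 13006 genes reached 1 FPKM. The libraries of mouse 3 stood apart from the other 6 before any gene was considered. Their FPKM summed over all transcripts to 384885 and 409889, against 295541 to 345572 in the libraries of mice 1 and 2. What the library numbers stand for is not given in the sources used here, so libraries are replicates of a mouse only, and a p-value below covers the spread between libraries, which may be technical.

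Rarres2 had the highest level of the 9 genes and Hydin the lowest. Mean levels over the 3 mice were 9.27 ± 5.34 FPKM (SD, n = 3 mice) for Rarres2, 3.30 ± 0.761 FPKM for Foxj1, 3.00 ± 0.389 FPKM for Rsph1, 2.96 ± 1.33 FPKM for Dynlrb2, 2.92 ± 1.53 FPKM for Ccdc153 and 2.32 ± 0.986 FPKM for Tmem212. Below 1 FPKM lay Dnali1 at 0.733 ± 0.213 FPKM, Dnah5 at 0.269 ± 0.0170 FPKM and Hydin at 0.159 ± 0.0202 FPKM. The ranges of the 3 mouse means did not overlap between Rarres2 and Foxj1, between Tmem212 and Dnali1, between Dnali1 and Dnah5 or between Dnah5 and Hydin. Foxj1, Rsph1, Dynlrb2, Ccdc153 and Tmem212 followed each other in an order that was not resolved, since the mouse ranges of neighbours overlapped at each step. Among all 24343 genes, Rarres2 lay above 74.2% of genes, Foxj1 above 57.9% and Dnah5 above 38.0%. A low level in whole-brain RNA can come from few cells or from little RNA per cell, and these cannot be told apart in bulk samples.

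**Figure D1:**
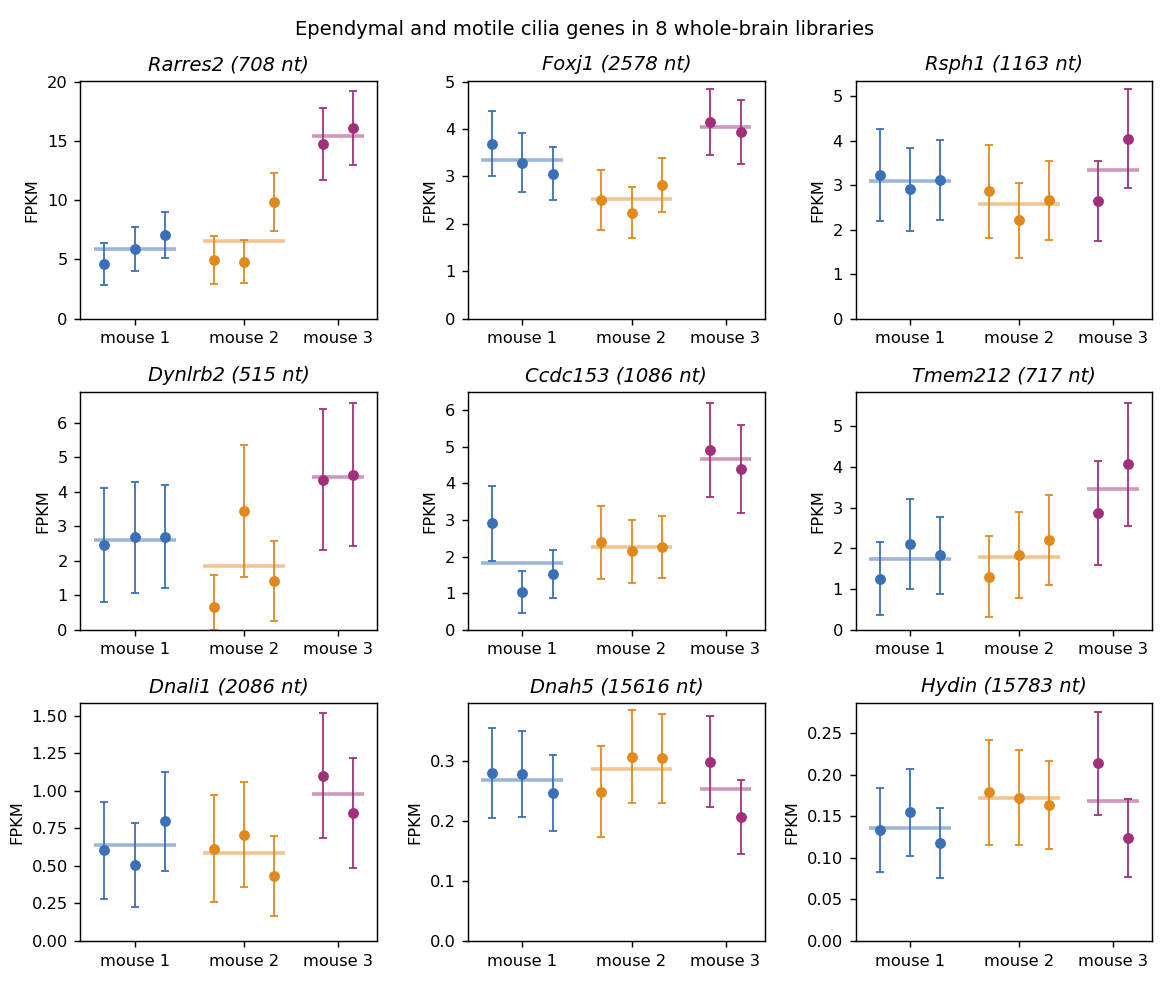
FPKM of each of the 9 genes (vertical axes, linear from 0) in the 8 whole-brain libraries, grouped by mouse, with the transcript length in nucleotides (nt) in each title. Points are libraries, vertical bars the deposited lower and upper bounds and horizontal lines the mean of a mouse. Rarres2, Ccdc153, Tmem212, Dynlrb2, Foxj1 and Dnali1 have both libraries of mouse 3 above the other 6, while for Rsph1, Dnah5 and Hydin the libraries of mouse 3 overlap with those of the other mice.

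The depth behind these values was small. The deposited bounds lie 2 standard deviations of a Poisson count on either side of a value, so the number of fragments behind it follows from their width. Over all single-transcript values that implied 5 to 10 fragments, 70.3% of 6458 lay within 0.02 of a whole number. This share was 46.0% of 9412 values at 11 to 30 fragments and 5.2% of 15021 at 31 to 100. The check therefore says little about the larger counts, which are estimates from the width alone. Dynlrb2 rested on between 1.99 and 18.9 implied fragments per library and Tmem212 on a median of 14.7 and at most 29.0. Foxj1 had between 64.5 and 138 implied fragments, and the long transcripts of Dnah5 and Hydin gave 43.4 to 67.9 and 28.0 to 46.7 in spite of their low FPKM. Within a mouse, the variance between libraries was between 0.794 (Dnali1) and 3.05 (Rarres2) times that of counting alone, against a median of 1.55 over 3820 single-transcript genes of like depth. Counting error of this size covers sampling of fragments only and does not cover duplicate reads.

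Foxj1 was highest in mouse 3 and lowest in mouse 2. Its level was 3.69, 3.29 and 3.05 FPKM in the libraries of mouse 1, 2.50, 2.24 and 2.82 FPKM in those of mouse 2, and 4.15 and 3.93 FPKM in those of mouse 3. The 3 mice did not overlap. The 3 mice were compared by limma on log2(FPKM + 1) over the 13001 genes that averaged 1 FPKM or more, a scale that understates the change of low genes. In this F-test Foxj1 passed the threshold of 0.05 (limma, adjusted p = 0.0192), as did 25.5% of all genes tested. Mouse 3 was above mouse 2 by 0.52 ± 0.10 (SE, log2 scale, limma adjusted p = 0.00902), and above mouse 1 by 0.22 ± 0.10, which did not pass (limma adjusted p = 0.134). The F-test was lost without library 2 of mouse 3 (limma adjusted p = 0.0919), without library 2 of mouse 2 (limma adjusted p = 0.0528) and when each library was scaled to the same total (limma adjusted p = 0.0799), a scaling under which the difference between mice 3 and 1 turned to -0.01. The difference between mice 3 and 2 passed without each library in turn, with limma adjusted p between 0.0139 and 0.0496, and did not pass when each library was scaled to the same total, at 0.28 ± 0.12 (limma adjusted p = 0.0800).

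The other regulators of multiciliation on the list were lower than Foxj1, with 1 exception. Rfx3, an RFX factor that also has roles outside motile cilia, had a mean of 5.39 ± 0.824 FPKM and was the only other gene of 11 listed to reach 1 FPKM. Its level was 5.85 FPKM in mouse 1, 5.88 FPKM in mouse 2 and 4.44 FPKM in mouse 3, and it did not pass the F-test (limma adjusted p = 0.0652). Mouse 3 was below mouse 1 by -0.34 ± 0.11 (limma adjusted p = 0.0429) and below mouse 2 by -0.35 ± 0.11 on the log2 scale (limma adjusted p = 0.0378). These differences passed in 2 and 1 of the 8 fits that left out 1 library. With the length trend removed Rfx3 had an F-test adjusted p of 0.585 in limma. Rfx2 had 0.820 FPKM, Trp73, a p53 family factor upstream of Foxj1, 0.324 FPKM, and Mcidas and Gmnc, which start the multiciliated programme, 0.0803 and 0.187 FPKM. Foxn4 was listed at 0 in 6 of 8 libraries and Cdc20b in all 8.

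Dnah5 and Dnali1 stand for the outer and inner dynein arms. Dnah5, a heavy chain of the outer arm and the motor itself, had 0.280, 0.278 and 0.246 FPKM in mouse 1, 0.249, 0.307 and 0.304 FPKM in mouse 2 and 0.299 and 0.207 FPKM in mouse 3. Its values overlapped in all 3 mice, and its coefficient of variation between mice, 6.32%, was the smallest of the 9 genes. The median over all genes tested, which averaged 1 FPKM or more and so do not include Dnah5, was 12.3%. Other outer arm heavy chains of the same family had like levels, with 0.279 FPKM for Dnah9 and 0.356 FPKM for Dnah11. Dnah8 and Dnah17, heavy chains known from sperm, had 0.0339 and 0.0474 FPKM, so that Dnah5 was 8.49 ± 2.62 times (SD, n = 3 mice) the level of Dnah8 and 6.22 ± 2.57 times that of Dnah17.

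Dnali1, a light intermediate chain of the inner arm, had 0.604, 0.508 and 0.798 FPKM in mouse 1, 0.616, 0.708 and 0.433 FPKM in mouse 2 and 1.10 and 0.853 FPKM in mouse 3. Both libraries of mouse 3 lay above the other 6, the nearest being 0.798 FPKM. Neither gene reached a mean of 1 FPKM and neither was tested in the fit described above. With a minimum of 0.1 FPKM they could be fitted, and neither passed (limma adjusted p = 0.150 for Dnali1 and 0.924 for Dnah5). Neither passed with a pseudocount of 0.1 and the length trend removed as well, settings added after the data were seen (limma adjusted p = 0.359 and 0.128). There mouse 3 was above mice 1 and 2 by 0.48 and 0.50 for Dnali1 and by 0.33 and 0.30 for Dnah5 on the log2 scale.

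Rsph1 and Hydin belong to the radial spoke and the central pair. Rsph1, a protein of the spoke head, had 3.23, 2.90 and 3.11 FPKM in mouse 1, 2.86, 2.20 and 2.66 FPKM in mouse 2 and 2.63 and 4.05 FPKM in mouse 3. Of mouse 3, the library at 4.05 FPKM lay above all others and that at 2.63 FPKM lay within the range of mouse 2. Rsph1 did not pass the F-test (limma adjusted p = 0.307). Without library 1 of mouse 3 it passed (limma adjusted p = 0.0455). Its difference between mice 3 and 1, 0.07 ± 0.14 on the log2 scale, took either sign depending on the scaling and on the library left out.

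Hydin, a very large protein of the central pair whose loss causes hydrocephalus in mice, had 0.134, 0.155 and 0.118 FPKM in mouse 1, 0.179, 0.173 and 0.164 FPKM in mouse 2 and 0.214 and 0.124 FPKM in mouse 3. Mouse 2 was above mouse 1 in all libraries. Of mouse 3, the library at 0.214 FPKM lay above all others and that at 0.124 FPKM lay within the range of mouse 1. With a minimum of 0.1 FPKM it did not pass (limma adjusted p = 0.859). In a fit added after the data were seen, with a pseudocount of 0.1, that minimum and the length trend removed, it passed (limma adjusted p = 0.0319), with mouse 3 above mouse 1 by 0.58 and above mouse 2 by 0.41 on the log2 scale.

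Dynlrb2, a roadblock light chain of dynein, is shared in name with an abundant relative. Its level was 2.46, 2.68 and 2.69 FPKM in mouse 1, 0.656, 3.44 and 1.41 FPKM in mouse 2 and 4.35 and 4.50 FPKM in mouse 3. Mouse 3 was above all other libraries, and mouse 2 had both the lowest and the third highest value. The F-test was not passed (limma adjusted p = 0.0920), while mouse 3 was above mouse 2 by 1.06 ± 0.33 on the log2 scale (limma adjusted p = 0.0385). That difference did not pass without any one of the libraries of mice 1 and 3, or without library 1 or 3 of mouse 2 (limma adjusted p up to 0.189). Dynlrb1, the relative used by cytoplasmic dynein, had 236 ± 34.2 FPKM, 87.4 ± 27.5 times (SD, n = 3 mice) the level of Dynlrb2. Dynlrb1 did not pass the F-test either (limma adjusted p = 0.0620). Its level in mouse 3 was above mouse 1 by 0.33 ± 0.10 (limma adjusted p = 0.0432) and above mouse 2 by 0.35 ± 0.10 (limma adjusted p = 0.0341). These differences passed in 2 and 1 of the 8 fits that left out 1 library, and turned negative with the length trend removed.

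Ccdc153 and Tmem212 are widely used markers of ependymal cells. Ccdc153, a coiled-coil protein of cilia, had 2.91, 1.03 and 1.52 FPKM in mouse 1, 2.39, 2.15 and 2.27 FPKM in mouse 2 and 4.92 and 4.41 FPKM in mouse 3. Mouse 3 did not overlap with the others, and mice 1 and 2 overlapped. Ccdc153 passed the F-test (limma adjusted p = 0.0272), with mouse 3 above mouse 1 by 1.06 ± 0.23 (limma adjusted p = 0.0127) and above mouse 2 by 0.79 ± 0.23 on the log2 scale (limma adjusted p = 0.0303). The F-test was lost without library 3 of mouse 1 (limma adjusted p = 0.0673) and without library 1 or library 2 of mouse 3 (limma adjusted p = 0.115 and 0.163), and with no filter on low genes (limma adjusted p = 0.0589). The difference between mice 3 and 2 passed in 3 of the 8 fits that left out 1 library, those without a library of mouse 1.

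Tmem212, a membrane protein, had 1.26, 2.11 and 1.82 FPKM in mouse 1, 1.30, 1.83 and 2.21 FPKM in mouse 2 and 2.86 and 4.06 FPKM in mouse 3. Mice 1 and 2 overlapped and mouse 3 lay above both. The F-test was passed (limma adjusted p = 0.0400), with mouse 3 above mouse 1 by 0.71 ± 0.19 (limma adjusted p = 0.0241) and above mouse 2 by 0.68 ± 0.19 (limma adjusted p = 0.0258). It was passed in 3 of the 8 fits that left out 1 library, those without library 1 or 3 of mouse 2 or library 1 of mouse 3, and in the other 5 its limma adjusted p was between 0.0558 and 0.323. It was also lost with a pseudocount of 0.1, with no filter and with equal totals (limma adjusted p = 0.0587, 0.0800 and 0.0624).

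Rarres2 encodes chemerin, a secreted attractant of immune cells that is also a marker of ependymal cells. Its level was 4.64, 5.87 and 7.06 FPKM in mouse 1, 4.94, 4.82 and 9.84 FPKM in mouse 2 and 14.7 and 16.1 FPKM in mouse 3. Library 3 of mouse 2 stood closer to mouse 3 than the rest, and still below it. Mouse 3 was above mouse 1 by 1.27 ± 0.26 (limma adjusted p = 0.0113) and above mouse 2 by 1.19 ± 0.26 on the log2 scale (limma adjusted p = 0.0135). It passed the F-test (limma adjusted p = 0.0197), and the call was lost without library 1 or library 2 of mouse 3 (limma adjusted p = 0.0688 and 0.176). The receptors of chemerin were below 1 FPKM, with 0.787 FPKM for Cmklr1, 0.435 FPKM for Ccrl2 and 0.245 FPKM for Gpr1.

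Of the 6 genes that could be tested, 4 passed the F-test (Foxj1, Rarres2, Ccdc153 and Tmem212), against 25.5% of all genes. Mouse 3 was higher than mouse 1 in 3 genes, where 14.7% of all genes were called higher, and higher than mouse 2 in 5 genes, where 19.0% were. Between mice 2 and 1 none of the 6 passed limma at an adjusted p of 0.05, and 0.00769% of all genes did, a single gene of 13001. Foxj1 was the 1 gene of the 6 with an unadjusted p under 0.05 in that contrast. Of the 3310 genes called in all, 55.4% were higher in mouse 3, and 14.3% of those called when each library was scaled to the same total. Both libraries of mouse 3 were above the other 6 in 6 of the 9 genes, as they were in 26.5% of the genes tested. Without library 2 of mouse 3 the F-test called none of the 6 genes and 126 genes in all, with 3 of the 6 at an unadjusted p under 0.05, in a fit where the remaining library of mouse 3 is assumed to vary like those of the other mice.

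**Figure D2:**
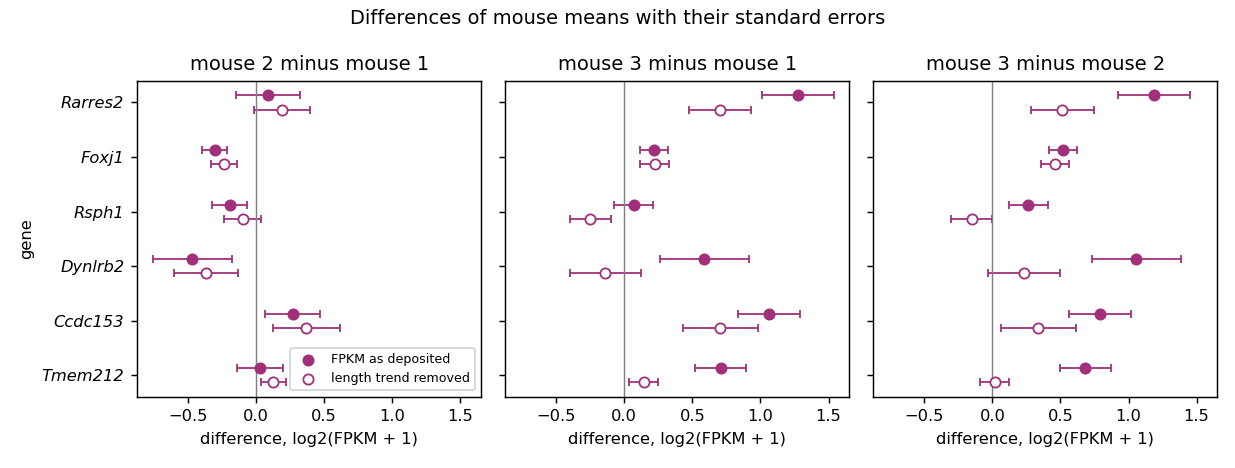
Differences between the means of 2 mice on the log2(FPKM + 1) scale (horizontal axes) for the 6 genes tested (vertical axis), with standard errors as bars. Filled points use FPKM as deposited and open points FPKM with each library's trend over transcript length removed. With the trend removed, the difference of mouse 3 from mouse 1 moves from 0.71 to 0.14 for Tmem212 and stays at 0.22 for Foxj1.

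The height of these genes in mouse 3 went along with transcript length. Over all genes tested, the median difference of mouse 3 from the mean of mice 1 and 2 was 0.42 on the log2 scale in genes of 77 to 1558 nucleotides, the shortest of 5 equal groups by length, -0.0044 in the middle group and -0.20 in the longest. In the shortest group 37.6% of genes passed the F-test, and 929 of those 980 were higher in mouse 3. Rarres2, Tmem212, Dynlrb2, Ccdc153 and Rsph1, with transcripts of 708, 717, 515, 1086 and 1163 nucleotides, are all in that group, and Foxj1, with 2578 nucleotides, is in the middle one. Dnah5 and Hydin, at 15616 and 15783 nucleotides, are among the longest transcripts in the table, and their libraries of mouse 3 overlapped with those of the other mice.

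When each library's trend over length was removed, Foxj1 alone of the 6 genes passed (limma adjusted p = 0.0380), against 20.3% of all genes. Its difference between mice 3 and 2 was then 0.46 ± 0.11 (limma adjusted p = 0.0176). The other adjusted p-values of limma's F-test became 0.121 for Rarres2, 0.193 for Ccdc153, 0.457 for Rsph1, 0.484 for Tmem212 and 0.488 for Dynlrb2. The differences of mouse 3 from mice 1 and 2 that remained were 0.70 and 0.51 for Rarres2 and 0.70 and 0.34 for Ccdc153. The differences of Rsph1 turned negative, at -0.25 against mouse 1 and -0.15 against mouse 2, and so did that of Dynlrb2 against mouse 1, at -0.14. Which part of the difference belongs to length and which to the mice was not tested.

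**Figure D3:**
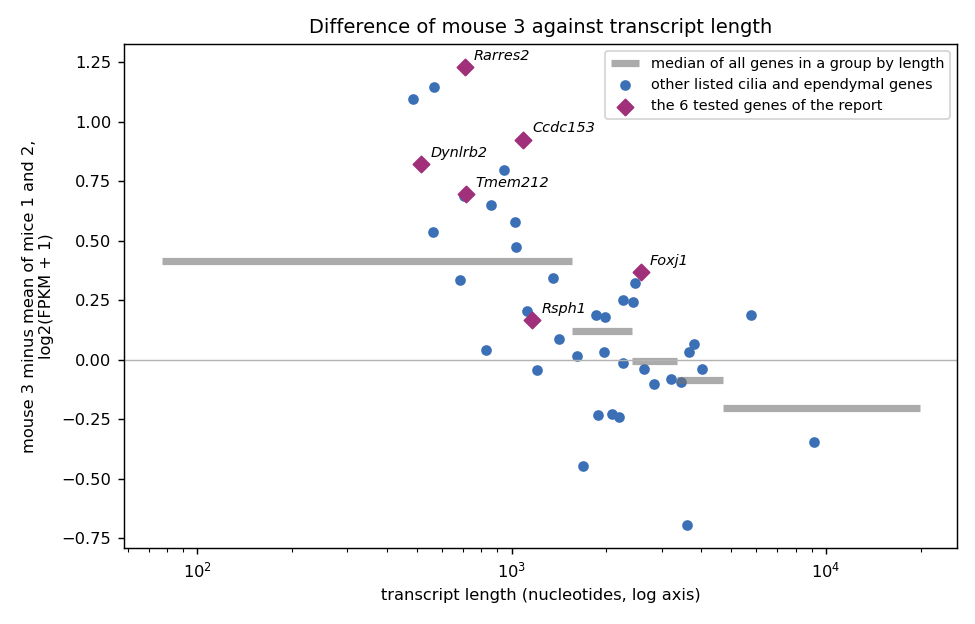
Difference of mouse 3 from the mean of mice 1 and 2 on the log2(FPKM + 1) scale (vertical axis) against transcript length in nucleotides (horizontal log axis) for 42 genes of the motile cilia and ependymal lists with at least 1 FPKM. Diamonds are the 6 tested genes of the report, dots the other listed genes and grey bars the medians of all 13001 genes in 5 groups by length, from 0.42 in the shortest to -0.20 in the longest. Foxj1 lies above the bar of its group and Rsph1 below that of its own.

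Beyond the 9 genes, the parts of the axoneme were followed in 9 lists of motile cilia and ependymal genes. These held 102 other genes, of which 95 were found, 59 lay below 1 FPKM and 36 were tested. Of those 36, 8 passed the F-test (22.2%, against 25.5% of all genes), 7 of them higher in mouse 3 and 1 lower. Without library 2 of mouse 3, 1 of the 36 passed, Ccdc39. With the length trend removed 3 passed (8.33%, against 20.3% of all genes), Dnal1 higher in mouse 3 and Ccdc39 and Lrrc6 lower. The median difference of mouse 3 over the listed and tested genes was 0.76 for the 6 genes of the report, 0.61 for the other ependymal markers, 0.03 for the other radial spoke genes and -0.10 for the nexin link genes, beside 0.02 over all genes tested.

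Of the ependymal markers other than the 4 already described, 8 could be tested and 5 passed the F-test, all higher in mouse 3. Over all genes tested 25.5% passed. In the shortest group by length, which holds all 8, 37.6% passed, and 929 of those 980 were higher in mouse 3. Mia rose most, from 2.04 FPKM in mouse 1 and 1.67 FPKM in mouse 2 to 5.28 FPKM in mouse 3 (limma adjusted p = 0.00716). Tppp3, a tubulin polymerization protein, had the highest level of the list at 36.8 ± 9.40 FPKM, with 47.5 FPKM in mouse 3 against 33.4 and 29.7 FPKM (limma adjusted p = 0.0191). Meig1, Fam183b and Calml4 passed as well. All 5 have transcripts of 562 to 1024 nucleotides. With the length trend removed 0 of the 8 passed in limma, against 20.3% of all genes, with 1 at an unadjusted p under 0.05 (Meig1). Mia and Tppp3 lost their calls without library 2 of mouse 3 (limma adjusted p = 0.0811 and 0.154). The summed level of these markers without those of the report was 40.1 to 52.4 FPKM in the libraries of mice 1 and 2 and 70.5 to 86.7 FPKM in mouse 3.

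The nexin link and ruler, which ties neighbouring doublets and sets the spacing along them, held the gene that went the other way. Ccdc39, a subunit of that ruler, had 5.01 FPKM in mouse 1, 4.74 FPKM in mouse 2 and 2.63 FPKM in mouse 3 (limma adjusted p = 0.00510). Mouse 3 was below mouse 1 by -0.73 ± 0.08 and below mouse 2 by -0.66 ± 0.08 on the log2 scale. The call was kept without each library in turn and with the length trend removed (limma adjusted p = 0.00324). Gas8, the highest gene of this list at 6.55 ± 1.28 FPKM, did not pass the F-test (limma adjusted p = 0.0657). In Gas8 mouse 3 was below mouse 1 by -0.44 ± 0.14 (limma adjusted p = 0.0425) and below mouse 2 by -0.45 ± 0.14 (limma adjusted p = 0.0390). These differences passed in 3 and 2 of the 8 fits that left out 1 library.

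Among radial spoke genes, Rsph9 was higher in mouse 3, with 11.05 FPKM against 6.47 FPKM in mouse 1 and 5.55 FPKM in mouse 2 (limma adjusted p = 0.0230, and 0.216 with the length trend removed). It did not pass without library 1 or library 2 of mouse 3 (limma adjusted p = 0.109 and 0.121). Rsph3b, the highest of the list at 7.89 ± 0.645 FPKM, did not pass (limma adjusted p = 0.265). It has a near-identical neighbour in Rsph3a, so its level is uncertain.

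No gene of the central pair, inner arm, outer arm or dynein assembly lists passed in limma's F-test on the deposited values, and 1 of the 11 tested, Spag6, had an unadjusted p under 0.05. The highest of these lists were Cfap74 at 5.46 ± 0.664 FPKM, Wdr78 at 1.86 ± 0.0786 FPKM, Dnal1 at 20.3 ± 1.66 FPKM and Spag1 at 2.89 ± 0.154 FPKM. Dnal1, a light chain bound to the outer arm heavy chain, exceeded Dnah5 and every other outer arm gene found. Pih1d3, an assembly factor, was listed at 0 in all 8 libraries. Dnai1, Dnai2, Dnah3, Dnah7c, Dnah12, Rsph10b and Cfap54 were not analysed here.

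**Figure D4:**
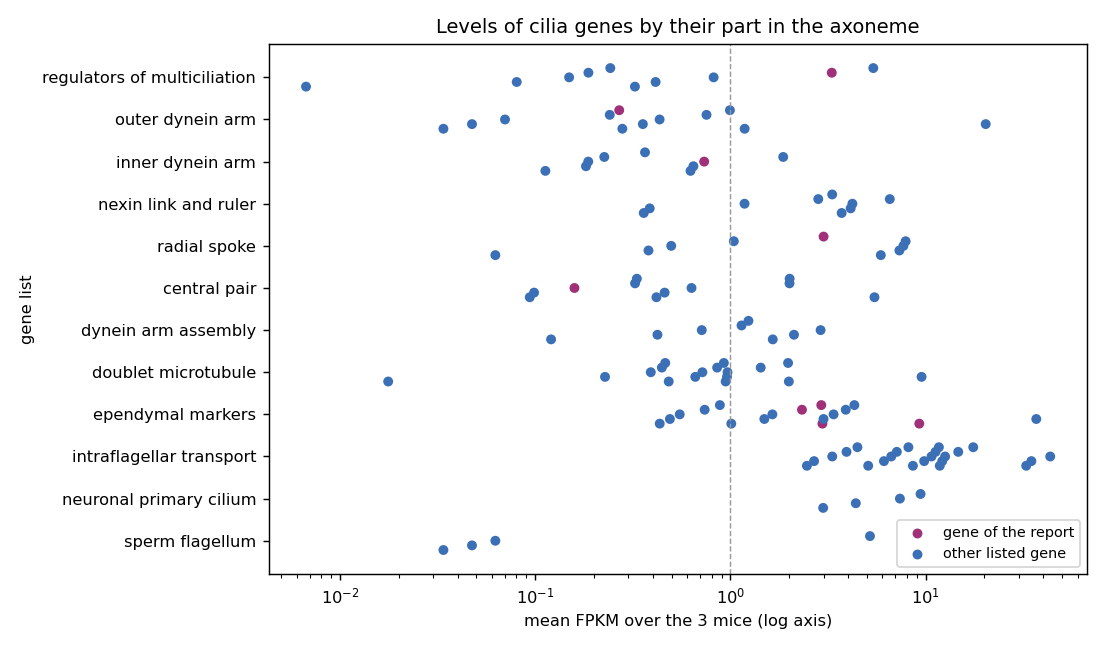
Mean FPKM over the 3 mice (horizontal log axis) of each gene found in 12 lists of cilia genes (vertical axis); a small vertical offset separates points. Genes at 0 in all libraries are left out (Cdc20b, Pih1d3 and 3 sperm genes) and the dashed line marks 1 FPKM. Of 12 outer arm genes 10 lie below 1 FPKM and Dnal1 reaches 20.3 FPKM, while all 23 genes of intraflagellar transport lie above it.

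Genes that motile cilia share with the primary cilia of other cells had higher levels. The 23 genes of intraflagellar transport, which carries cargo along every cilium, had a median of 9.82 FPKM, against 0.713 FPKM over the 95 other motile cilia and ependymal genes. Of the 23, 4 were higher in mouse 3, 4 were lower and 15 did not pass. Over all genes tested 25.5% passed, and 55.4% of those were higher in mouse 3. Ift20 rose from 35.6 and 33.9 FPKM to 60.8 FPKM (limma adjusted p = 0.0213), and Kif3a, a subunit of the kinesin that drives this transport, fell from 38.7 and 35.9 FPKM to 23.6 FPKM (limma adjusted p = 0.00770). Kif3a kept its call with the length trend removed (limma adjusted p = 0.00681) and Ift20 did not (limma adjusted p = 0.170). Without library 2 of mouse 3 neither passed (limma adjusted p = 0.0539 for Kif3a and 0.199 for Ift20). None of 4 genes of the neuronal primary cilium passed in limma's F-test or had an unadjusted p under 0.05, the highest being Inpp5e at 9.41 ± 0.518 FPKM. Of 7 sperm flagellum genes 3 were listed at 0 in all libraries, among them Odf1, and 1 reached 1 FPKM, Tekt5 at 5.18 ± 0.361 FPKM.

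Markers of other cell types that touch the ventricles or could carry the same genes also differed between the mice. All 6 astrocyte markers (Aqp4, Gja1, Aldh1l1, Gfap, Slc1a3 and S100b) were higher in mouse 3, and their summed level was 449 to 485 FPKM in the libraries of mice 1 and 2 and 715 and 825 FPKM in those of mouse 3. Gfap rose from 52.8 and 54.4 FPKM to 111 FPKM (limma adjusted p = 0.00510) and S100b from 112 and 113 FPKM to 229 FPKM (limma adjusted p = 0.00699). All 6 passed with the length trend removed, and 1 of 6, Gfap, passed without library 2 of mouse 3. Over all genes tested, 25.5% passed the F-test on the deposited values and 20.3% with the length trend removed. S100b and Gfap can be made by ependymal cells as well. The part of these markers in the height of Foxj1 and the other genes in mouse 3 was not tested.

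Choroid plexus markers, from the epithelium that continues the ependymal lining, were followed in a list of 7. Of these 2 passed, against 25.5% of all genes, and both were lower in mouse 3, Kl with 3.42 FPKM against 6.27 and 5.78 FPKM (limma adjusted p = 0.0206) and Slc4a5 with 0.607 FPKM against 1.36 and 1.17 FPKM (limma adjusted p = 0.0145). Both passed with the length trend removed (limma adjusted p = 0.0227 and 0.0345). Both lost the call without library 2 of mouse 3 (limma adjusted p = 0.157 and 0.111), and Kl also without library 2 or 3 of mouse 1 (limma adjusted p = 0.0519 and 0.0526). Ttr, the carrier of thyroid hormone that plexus cells make in bulk, had 516, 414 and 486 FPKM in mice 1, 2 and 3 and did not pass (limma adjusted p = 0.309). Of 6 markers of vascular and leptomeningeal cells 0 passed in limma and 2 had an unadjusted p under 0.05, with a summed level of 48.3 to 55.4 FPKM in mice 1 and 2 and 49.4 and 50.1 FPKM in mouse 3, and the highest, Igf2, had 23.4 ± 2.38 FPKM. Without library 1 of mouse 3, 3 of the 6 passed.

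Tanycytes, the ependymal relatives in the floor of the third ventricle, were followed by 3 genes. Dio2, which activates thyroid hormone and is also expressed by astrocytes, was higher in mouse 3 with 16.4 FPKM against 8.97 and 10.1 FPKM (limma adjusted p = 0.00629, 0.00385 with the length trend removed and 0.0544 without library 2 of mouse 3). Rax and Gpr50 were at 0.0405 and 0.217 FPKM. Sspo, the marker of the hypendymal cells of the subcommissural organ, had 0.0788 FPKM.

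The 9 genes did not all vary together over the 8 libraries. Among the 7 with shorter transcripts, Pearson's r of log2(FPKM + 1) was above 0 in 21 of 21 pairs, from 0.143 to 0.912 with a median of 0.540. After the mean of each mouse was taken out, r was above 0 in 10 of these pairs and below 0 in 11, from -0.706 (Ccdc153 and Tmem212) to 0.672 (Tmem212 and Rarres2) with a median of -0.111. Between these 7 and Hydin or Dnah5, r with the mouse means left in was above 0 in 3 of 14 pairs, with a median of -0.136. It was lowest between Rsph1 and Dnah5 at -0.865. After the mouse means were taken out, r was above 0 in 7 of these 14 pairs and below 0 in 7, with a median of -0.00765. Rsph1 and Dnah5 then had -0.864. Hydin and Dnah5 had 0.606 with each other, and 0.737 after the mouse means were taken out. These coefficients are descriptions over 8 libraries from 3 mice, which share depth and the length trend.

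The mean of the standardised values of the 9 genes was 1.08 and 0.716 in the libraries of mouse 3 and -0.598 to -0.167 in the other 6. The 10 genes whose values were most like this mean, among genes with at least 1 FPKM, were Shank3 (r = 0.995), Map3k10, Phkb, Aldh1l1, Gng7, D17Wsu92e, Nsmf, Git1, Itpkb and Cdk16 (r = 0.989). None of them is on a list of cilia genes, and Aldh1l1 is on the astrocyte list. Their transcripts have 2933 to 7130 nucleotides, longer than those of 7 of the 9 genes. They had r between 0.831 and 0.978 after the mean of each mouse was taken out. These values come from the same libraries by which the 10 genes were chosen, so they are not a separate check of likeness.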

How the data were processed

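The deposited values are FPKM of 34535 RefSeq transcripts per library, made by the authors with a lower and an upper bound and a status. Its coverage column, deposited as a signal not scaled for library size, served only to estimate depth. Per the labels, TopHat, Cufflinks and mm10 were used, with versions not given in the sources used here. RNA passing an integrity minimum was made into Kapa mRNA HyperPrep libraries. The status was FAIL for 8 values, none of them of the 9 genes.

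Transcripts were summed per gene and averaged per mouse, then over mice. limma 3.58.1 (R 4.3.3) was fitted to log2(FPKM + 1) in the 13001 genes that averaged 1 FPKM or more, and p-values adjusted by Benjamini-Hochberg over all of them were called under 0.05. It was tested on simulated data. Fragments were computed from the bounds as (2 × FPKM / half-width) squared. The length trend was a lowess fit of each library's log2 deviation. Alternatives changed the pseudocount, filter, scaling, transcript sum, variance trend, block and libraries. Lists were described by counts, with no set test. The genes named in each list were those with the highest level and up to 2 of the called genes with the largest range, beside paralogs, receptors and the 10 most similar genes; Meig1, Fam183b, Calml4, Lrrc6 and the genes given below 1 FPKM or at 0 were named after their values were seen. Genes and lists were chosen with earlier results of these data known.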

Additional observations from a re-analysis of the deposited data

How the results depend on the processing

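The levels of the 9 genes kept their order in TPM, at 25.7 for Rarres2, 9.46 for Foxj1, 8.65 for Rsph1, 8.23 for Dynlrb2, 8.16 for Ccdc153, 6.50 for Tmem212, 2.09 for Dnali1, 0.786 for Dnah5 and 0.461 for Hydin. The number of genes of the 6 that passed the F-test, 4 on the deposited values, was 2 with no filter and in TPM, 1 with the length trend removed, and between 0 and 4 without each library in turn. For mouse 3 against mouse 1 it moved from 3 to 0 with the length trend removed, and lay between 0 and 4 without each library in turn. For mouse 3 against mouse 2 it moved from 5 to 3 with a pseudocount of 0.1 and in TPM, to 2 with no filter and to 1 with the length trend removed, and lay between 1 and 4 without each library in turn. The other listed genes that passed moved from 8 to 5 with the highest transcript of each gene and to 3 with the length trend removed, with 1 to 9 without each library in turn. Over all genes 5646 passed in TPM against 3310 as deposited, and 126 to 3860 without each library in turn. In TPM the median of all genes in mouse 3 shifted to -0.23 and 14.3% of calls were higher in mouse 3, against 55.4% as deposited.

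Library numbers were not used to pair the samples in the main fit. Deviations from the mouse mean correlated at 0.00276 to 0.107 between same-numbered libraries of different mice. Between libraries of different number they correlated at -0.135 to 0.0645. Deviations sum to 0 within a mouse and the meaning of the numbers is not given, so these values cannot decide whether the numbers pair the samples. With the replicate block, 4 of the 6 genes passed the F-test, as did 2995 of all 13001 genes tested. With the block and the length trend removed 1 of 6 passed it (Rarres2), as did 2 of the other listed genes and 1701 genes in all. For mouse 3 against mouse 2, 2 of the 6 then passed.

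Signs turned in TPM for Foxj1 (mouse 3 against mouse 1, -0.013) and Rsph1 (-0.15). With the length trend removed they turned for Rsph1 (-0.25 against mouse 1 and -0.15 against mouse 2, and -0.27 and -0.17 with the block) and for Dynlrb2 against mouse 1 (-0.14, and -0.20 with the block). Without each library in turn, mouse 2 against mouse 1 ranged from -0.10 to 0.16 for Tmem212 and from -0.21 to 0.24 for Rarres2, and mouse 3 against mouse 1 from -0.17 to 0.31 for Rsph1. Dynlrb1 turned to -0.26 against mouse 1 and -0.34 against mouse 2 with the length trend removed, to -0.30 and -0.38 with the block as well, and to -0.30 and -0.39 with the added pseudocount and minimum. Rfx3 against mouse 2 turned to 0.017 with the highest transcript of each gene. The causes were not tested.

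After the data were seen, a pseudocount of 0.1 with a minimum of 0.1 FPKM was added, and 1 of the 9 genes passed (Foxj1), 2 for mouse 3 against mouse 2, 3 other listed genes and 1526 in all. This minimum admits more genes than the 13001 of the main fit, so counts in all under it are not shares of those. With the length trend removed as well, 1 passed (Hydin, limma adjusted p = 0.0319), 1 for mouse 3 against mouse 1, 2 for mouse 3 against mouse 2, 2 other listed genes and 1310 in all, and the differences of Rsph1 were -0.27 and -0.12 and that of Dynlrb2 against mouse 1 was -0.042.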
